A study of Xenopus laevis with 12 samples.

Results

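The genes described here are the ligands and receptors of axon guidance in the brain of the clawed frog Xenopus laevis. They were taken from an NCBI gene table by symbol: the semaphorins, plexins, neuropilins 1 and 2, A and B ephrins and their Eph receptors, Slits 1 to 3, Robos, netrins, dcc and the unc5 receptors. A gene needed at least 10 reads in 3 or more of the 12 libraries, and 100 of the 100 matching rows met this, among 26638 of 37018 rows in the whole table. Xenopus laevis carries many genes as a .L and a .S copy, and the 100 rows held 60 gene names, 40 of them with both copies. The symbol rule also caught unc50.L and unc50.S, which encode a protein of the secretory pathway and no guidance receptor, so 98 rows of 59 names belong to the guidance families. These were 33 semaphorins, 13 plexins, 3 neuropilins, 12 ephrins, 12 Eph receptors, 8 Slits and Robos, 9 netrins, and 8 rows of dcc and unc5.

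RNA was sequenced from whole-brain tissue of wild-type control tadpoles and of tadpoles with brain abnormalities after thioridazine, a phenothiazine antipsychotic. Exposed embryos met 90 µM of the drug between Nieuwkoop-Faber (NF) stages 14 and 26, and both arms were kept at 18 °C in that window. For all groups the rearing temperature was 14 °C, with 50 embryos per plate of 10 mL. Brains were taken at NF 45 and NF 47, both before metamorphosis, with 3 libraries in each of the 4 groups. The number of brains and the clutches behind a library, any vehicle given to controls and the way abnormal brains were picked are not stated in the labels.

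Growing axons read guidance cues with receptors on the growth cone. Slits bind Robo receptors and repel axons at the midline, while netrins attract through Dcc and repel through Unc5. Secreted class 3 semaphorins act on plexins mostly with a neuropilin as the binding partner, and membrane semaphorins bind plexins directly. Ephrins and Eph receptors are both held on cell surfaces and signal at contact. In Xenopus, retinal axons meet netrin at the optic nerve head and Slit and semaphorin 3A along the optic tract, and A ephrins are graded across the tectum in which they end.

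Read totals per library ran from 12843954 to 18164871, and the 100 rows took between 0.277% and 0.369% of them. Levels are given as CPM, a gene's reads relative to the library total, which was scaled by the trimmed mean of M values (TMM). They are listed by group in the order of replicates 1, 2 and 3, and means carry the SD over n = 3 libraries. A CPM value depends on transcript length, so levels are compared between libraries and not between genes. The median biological coefficient of variation over all genes was 20.8%. Of the neuronal marker list 14 of 14 rows were tested, with a summed level of 4138 to 6048 CPM over the 12 libraries. This shows neuronal RNA in each library, but it cannot tell brain from a wider sample that holds brain. In bulk tissue, fewer cells of a type and less RNA per cell cannot be told apart.

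None of the 100 rows passed the test for thioridazine at either stage, for the mean of both stages, for the difference between stages, or for stage in either arm. The test was edgeR's quasi-likelihood F test over 26570 genes, called at an adjusted p under 0.05. It called 0 genes in each of these comparisons, so the background share of called genes was 0.0% for all of them. What follows gives the levels, the differences with their intervals, and the members that departed most from 0.

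Within groups, replicate 2 of both NF 45 groups stood apart. In 41 of the 100 members both of these libraries lay above the other 4 NF 45 libraries, where 25.4% of all genes did, and in 11 members both lay below, where 25.9% did. By family, 7 of the 8 rows of dcc and unc5 were above, 7 of 12 Eph receptors, 3 of 3 neuropilins, 4 of 8 Slits and Robos, 4 of 13 plexins, 9 of 33 semaphorins, 4 of 12 ephrins and 3 of 9 netrins. None of the Eph receptors, neuropilins, Slits and Robos or rows of dcc and unc5 were below.

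The netrin receptor dcc.S (gene number 378528), which draws axons toward netrin, shows this pattern. It stood at 8.11, 12.1 and 6.54 CPM in NF 45 controls and at 8.26, 12.3 and 4.91 CPM in exposed NF 45 brains. Its value in replicate 2 was the highest of each group. The neuropilin nrp1.L, a co-receptor of semaphorin 3A, was measured at 15.7, 22.1 and 14.2 CPM in these controls and 15.7, 25.8 and 13.4 CPM in exposed brains, again highest in replicate 2. The opposite side was held by sema3d.S, a secreted semaphorin, with 11.8, 5.80 and 13.7 CPM in controls and 16.6, 5.97 and 15.4 CPM after thioridazine, and by efna1.L, an ephrin anchored in the membrane by a lipid, with 27.4, 13.3 and 23.6 CPM and 25.9, 14.8 and 24.9 CPM. In both genes replicate 2 was the lowest of its group.

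Markers of other tissues differed between the same libraries. All 11 tested rows of the skin and epithelium list were below the other 4 NF 45 libraries in both libraries numbered 2, and their summed level was 736, 29.8 and 751 CPM in NF 45 controls and 1664, 19.6 and 475 CPM in exposed NF 45 brains. Of the cartilage and connective tissue list 10 of 13 rows were below, with sums of 3541, 695 and 3018 CPM and 4145, 708 and 4100.4 CPM. Of the muscle list 8 of 11 rows were above, with sums of 544, 1957 and 1034 CPM and 741, 2732 and 564 CPM, and of the endothelium list 12 of 12 rows were above, with sums of 89.3, 126 and 82.5 CPM and 76.6, 139 and 84.7 CPM. Among neurons 6 of 14 rows were above and 1 was below. No row of these lists was at 0 in all 12 libraries. The part of these tissues in the levels of guidance genes was not tested.

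Replicate 3 of the NF 45 controls also differed from its group. Its guidance genes took 0.277% of reads, the lowest share of the 12 libraries, and its members lay at a median of -0.12 on the log2 scale from their means, also the lowest. The summed liver and gut markers stood at 1268 CPM there against 569 to 629 CPM in the other 5 NF 45 libraries. Of that list, rbp4.S had 7163 to 9949 reads in every NF 45 library. The row fga.S had 1203 reads in control replicate 3 and 0 to 2 in the other 5. The row apoa1.S was highest in exposed replicate 2 of NF 45, with 927 reads, beside 479 in control replicate 3. The retina and pigment list summed to 158, 128 and 562 CPM in NF 45 controls and 598, 213 and 213 CPM in exposed NF 45 brains, so that control replicate 3 and exposed replicate 1 were high. The part of these markers in the differences of guidance genes was not tested.

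**Figure D1:**
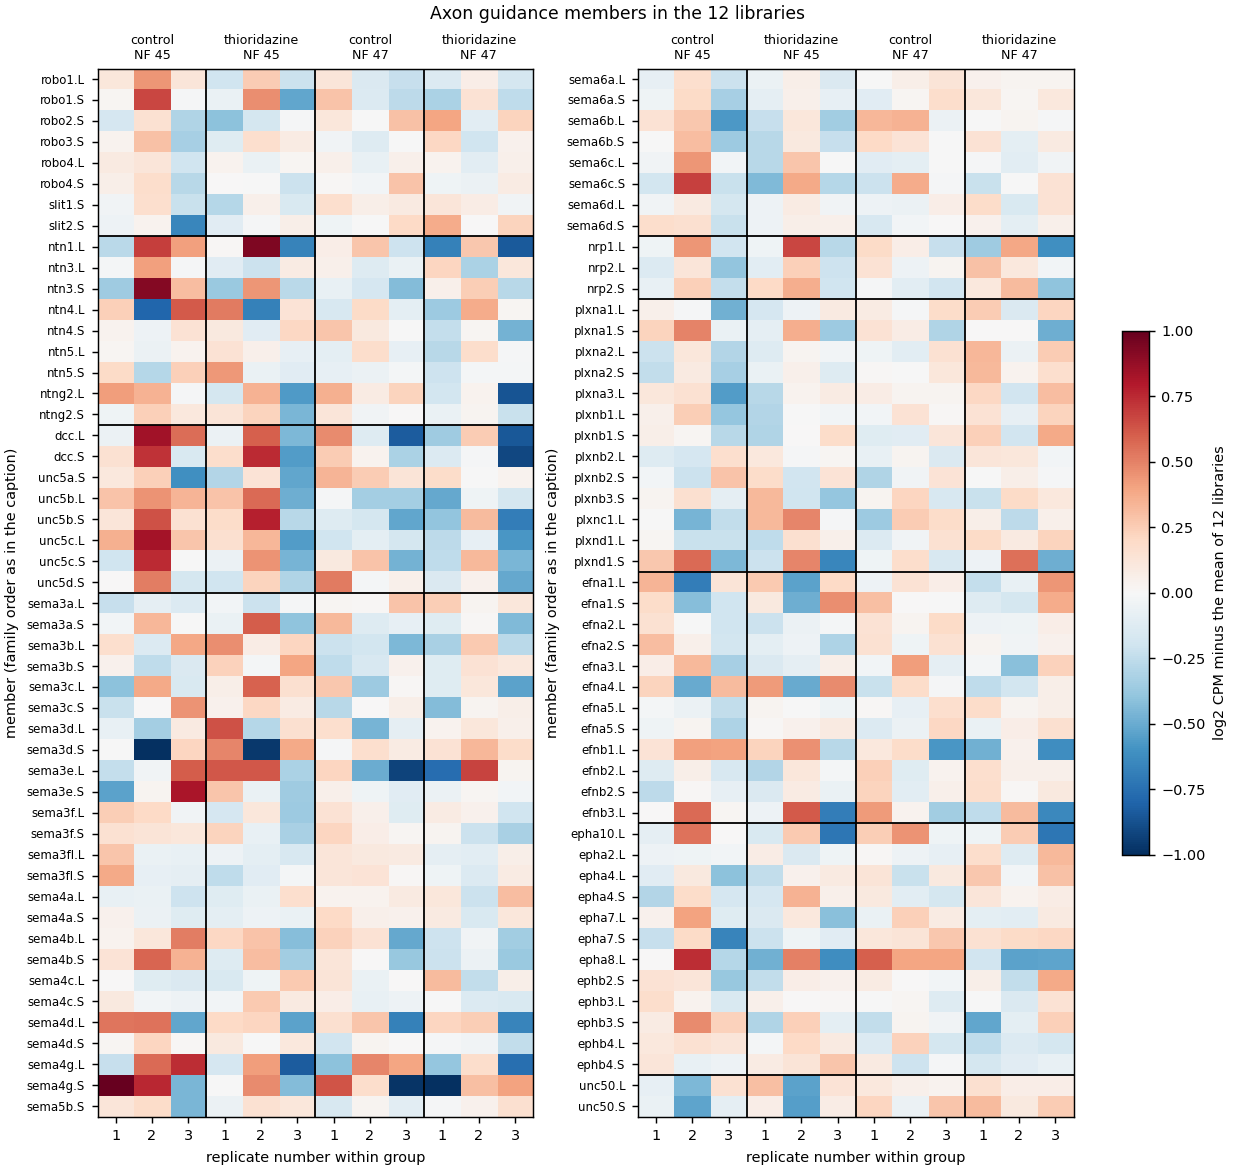
Log2 CPM of each of the 100 rows in each library, as the difference from its mean over the 12 libraries; rows are ordered as Slits and Robos, netrins, dcc and unc5, semaphorins to sema5b.S in the left panel, and the other semaphorins, neuropilins, plexins, ephrins, Eph receptors and unc50 in the right panel, with black lines between families and groups. Replicate 2 of both NF 45 groups shows red cells for all 8 rows of dcc and unc5, pale in some. No block of rows separates the exposed from the control libraries.

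Some members followed the replicate number in all 4 groups. In 3 members, sema4d.L, dcc.S and nrp2.S, all 4 libraries numbered 3 lay below the other 8, as did 1.36% of all genes. In 2 members, epha10.L and unc5c.S, all 4 libraries numbered 2 lay above the other 8, as did 1.28% of all genes. These 5 genes were singled out after their values were seen, and the labels do not say what a replicate number stands for.

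The membrane semaphorin sema4d.L (gene number 108714852), a ligand of plexin B1, had the clearest separation of these. It stood at 48.7, 49.1 and 23.5 CPM in NF 45 controls, 38.7, 39.2 and 23.2 CPM in exposed NF 45 brains, 37.6, 40.7 and 21.0 CPM in NF 47 controls and 39.0, 40.0 and 21.3 CPM in exposed NF 47 brains. The libraries numbered 3 held 21.0 to 23.5 CPM and the other 8 held 37.6 to 49.1 CPM. Its other copy, sema4d.S, ranged over all 12 libraries from 20.4 to 28.0 CPM without that split. The share of .L reads among reads of both copies therefore ran from 46.4% to 66.5%.

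The receptor tyrosine kinase family member epha10.L, whose human counterpart lacks kinase activity, had 36.3, 56.4 and 38.7 CPM in NF 45 controls and 45.9, 52.8 and 37.5 CPM in NF 47 controls. In exposed brains it had 34.8, 46.3 and 23.4 CPM at NF 45 and 37.5, 46.0 and 23.3 CPM at NF 47. Replicate 2 was the highest library of every group, and replicate 3 was the lowest of each group except the NF 45 controls.

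**Figure D2:**
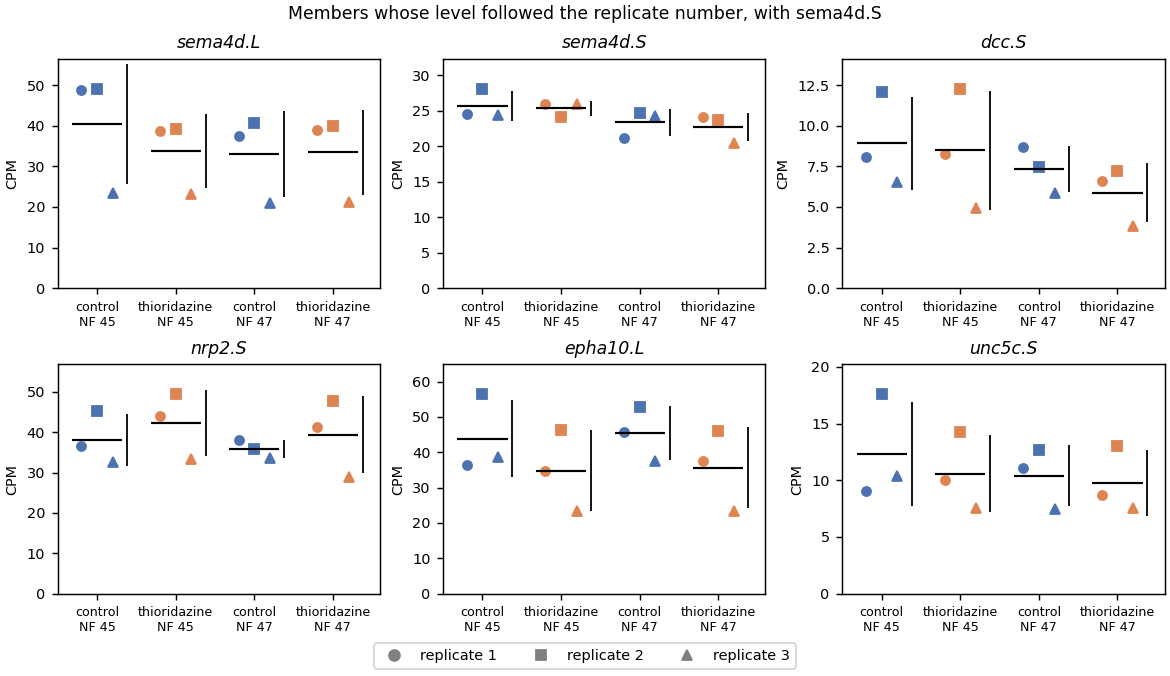
CPM of 6 members by group, where circles, squares and triangles are replicates 1, 2 and 3, horizontal lines are group means and vertical lines span 1 SD on either side. In sema4d.L the 4 triangles lie between 21.0 and 23.5 CPM, below all other points, while sema4d.S shows no such split.

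The first comparison asked how guidance genes of exposed brains differed from those of controls at NF 45. Of the 100 members 45 were higher and 55 lower in the mean, and without both NF 45 libraries numbered 2 the counts were 53 and 47. Without replicate 3 of the controls they were 34 and 66, with a median of -0.09. The median member stood at -0.02 on the log2 scale and the median of all genes, 49.1% of which were higher, at 0.00. At an unadjusted p under 0.05 there was 1 member, sema3b.S, beside 1.98% of all genes. The 3 exposed libraries lay wholly above or below the 3 controls in 0 members, beside 3.99% of all genes. The 95% interval stayed within 1 log2 unit of no difference in 88 members and within 0.5 in 45. Of the marker lists, leukocytes and microglia were higher in exposed NF 45 brains in 9 of 9 rows. Their sums were 35.2, 41.6 and 26.8 CPM against 21.0, 16.4 and 23.3 CPM in controls. Red blood cells were higher in 6 of 6 rows, neurons in 13 of 14, and neural progenitors and radial glia in 10 of 12. Cartilage and connective tissue was higher in 10 of 13 rows, muscle in 9 of 11, and retina and pigment in 8 of 11. Skin and epithelium was higher in 7 of 11 rows and oligodendrocytes in 4 of 8. Endothelium was lower in 9 of 12 rows, and liver and gut in 5 of 7. At an unadjusted p under 0.05 in edgeR's quasi-likelihood test there were 7 of the 9 leukocyte and microglia rows. There were 3 of 7 for liver and gut, 2 of 11 for retina and pigment, and at most 1 row of each other list. The liver and gut sum was 1268 CPM in control replicate 3 and 569 to 629 CPM in the other NF 45 libraries. None of the marker rows passed the adjusted threshold, and their part in these differences was not tested.

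The same comparison at NF 47 had 48 members higher and 52 lower. The median member stood at -0.01 on the log2 scale and the median of all genes, 49.7% of which were higher, at 0.00. At an unadjusted p under 0.05 there was again 1 member, epha8.L, beside 1.1% of all genes. In 3 members, epha8.L, ntng2.L and sema3fl.L, the exposed libraries lay wholly below the controls, as did 3.55% of all genes, and in 0 members they lay wholly above, where 3.81% of all genes did. Intervals stayed within 1 log2 unit in 92 members and within 0.5 in 51. Muscle markers were higher in exposed NF 47 brains in 11 of 11 tested rows, with summed levels of 590.2 to 982 CPM against 266 to 738 CPM, and the retina and pigment list was higher in 11 of 11, with sums of 128 to 280.4 CPM against 81.5 to 160 CPM. Cartilage and connective tissue was higher in 11 of 13 rows, skin and epithelium in 10 of 11, and leukocytes and microglia in 8 of 9. Neural progenitors and radial glia were higher in 9 of 12 rows, endothelium in 7 of 12, and oligodendrocytes in 4 of 8. Neurons were lower in 8 of 14 rows, liver and gut in 4 of 7, and red blood cells in 4 of 6. None of these rows passed the test, and their part in the differences below was not tested.

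**Figure D3:**
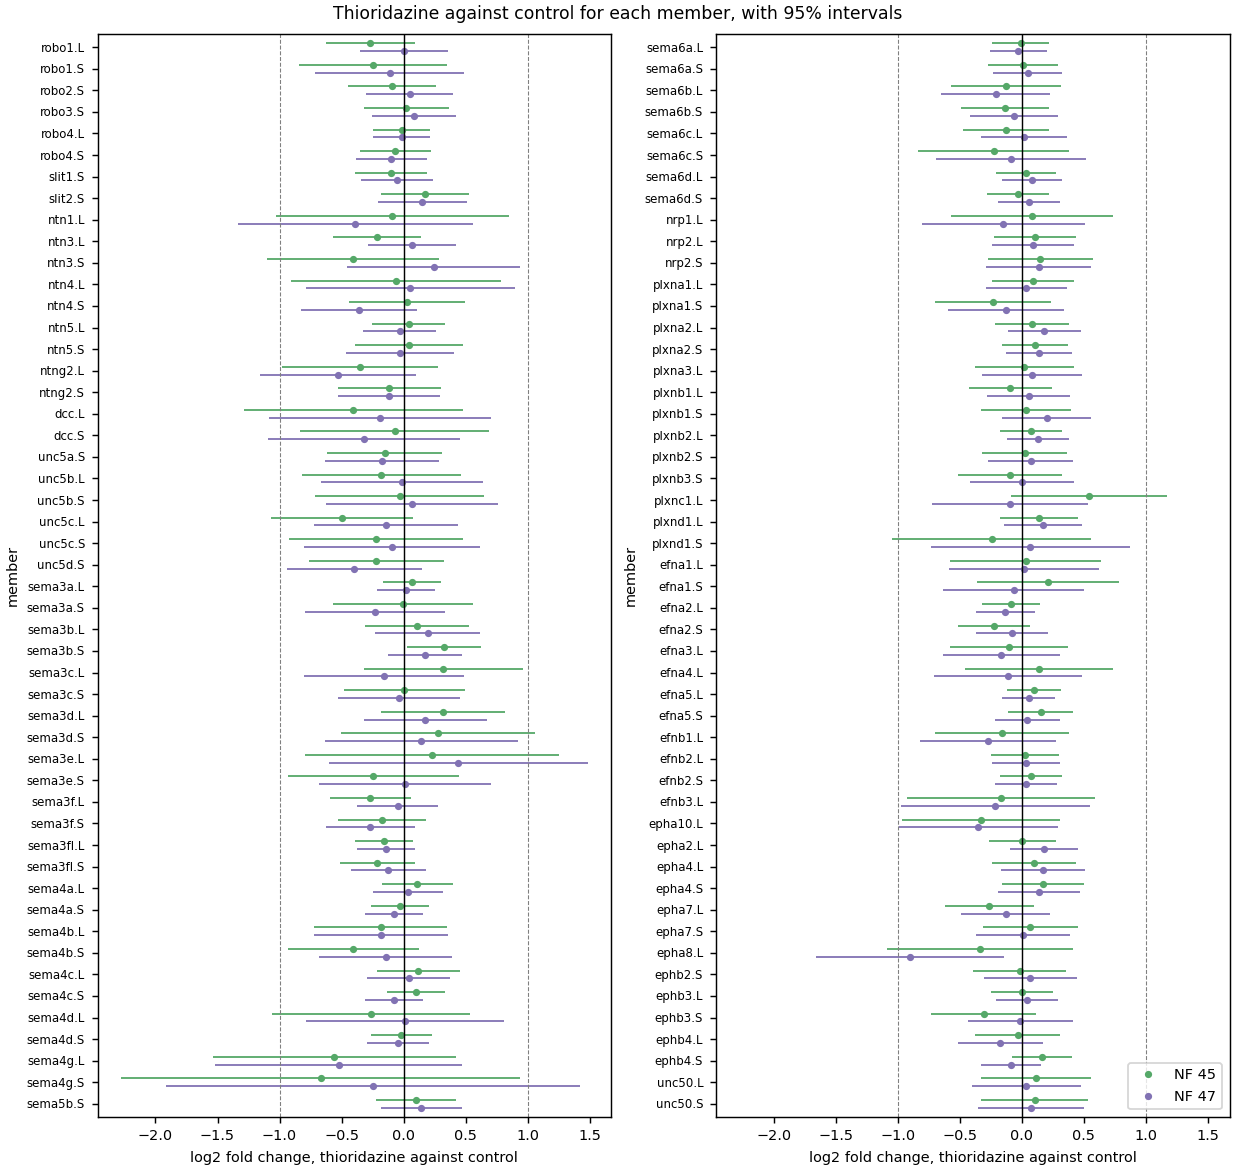
Log2 fold change of thioridazine against control for each of the 100 members at NF 45 (green) and NF 47 (purple), where points are estimates, lines are 95% intervals, the solid line is 0 and the dashed lines mark 1 log2 unit. Most intervals cross 0 and stay inside the dashed lines, in 87 members at NF 45 and in 92 at NF 47 for both conditions together.

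Ligands come first. Of the 33 semaphorins 14 were higher and 19 lower at NF 45, and 15 higher and 18 lower at NF 47, with medians of -0.02 and -0.04 on the log2 scale. The repellent sema3a.L (gene number 378645), which collapses growth cones, was measured at 52.4, 57.8 and 56.1 CPM in NF 45 controls and 60.3, 53.1 and 61.1 CPM in exposed brains. At NF 47 it had 62.4, 62.2 and 75.3 CPM and 73.1, 62.7 and 66.7 CPM. The groups overlapped at both stages, and its log2 differences of 0.07 ± 0.107 and 0.02 ± 0.107 (estimate ± SE) had intervals of -0.16 to 0.30 and -0.21 to 0.25. Its copy sema3a.S differed by 0.00 ± 0.259 and -0.23 ± 0.260.

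The secreted semaphorin sema3b.S (gene number 108715824) was the member with the highest ratio of its difference to its error at NF 45. Controls held 36.7, 29.9 and 32.3 CPM and exposed brains 41.8, 35.1 and 46.8 CPM, with the lowest exposed library below the highest control. At NF 47 the values were 29.8, 31.9 and 36.7 CPM in controls and 32.8, 39.5 and 38.4 CPM after exposure. Each exposed library lay above the control of the same number in all 6 pairs, and the groups overlapped at both stages. The log2 difference was 0.33 ± 0.137 at NF 45 and 0.17 ± 0.137 at NF 47. The adjusted p of edgeR's quasi-likelihood test was 1.00 at NF 45 and, with the replicate number as a block, 0.736.

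The gene sema3fl.L, named for its likeness to sema3f, lay on the other side. Its levels were 61.1, 48.2 and 48.0 CPM in NF 45 controls, 48.6, 47.1 and 45.1 CPM in exposed NF 45 brains, 55.02, 54.0 and 53.6 CPM in NF 47 controls and 47.5, 46.8 and 52.6 CPM in exposed NF 47 brains. At NF 47 all exposed libraries were below all controls, and the log2 difference was -0.15 ± 0.107. Of the membrane semaphorins, sema5b.S, which carries thrombospondin repeats, differed by 0.10 ± 0.149 and 0.14 ± 0.149 at NF 45 and NF 47. The largest differences of the family belonged to genes with few reads. The membrane semaphorin sema4g.L ranged over the 12 libraries from 0.769 to 2.54 CPM, and its differences were -0.56 ± 0.450 and -0.52 ± 0.456, with intervals of -1.54 to 0.42 and -1.52 to 0.47. Its copy sema4g.S, from 0.0641 to 1.74 CPM, had the largest difference of any member at NF 45, -0.67 ± 0.738, with an interval of -2.28 to 0.94. The ligand of plexin D1 in the mouse, sema3e.L, had the largest positive value at NF 47, 0.44 ± 0.479, from levels of 0.844 to 2.84 CPM over the 12 libraries.

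Netrins numbered 9 rows, of which 3 were higher and 6 lower at each stage. The secreted ntn1.L (gene number 373694), the attractant of the ventral midline, varied strongly within groups, from 24.7 to 84.4 CPM over the 12 libraries. NF 45 controls had 36.7, 71.6 and 58.7 CPM and exposed NF 45 brains 44.6, 84.4 and 27.8 CPM. At NF 47 controls had 46.2, 53.7 and 38.3 CPM and exposed brains 27.6, 53.3 and 24.7 CPM. All groups overlapped, and the intervals of -1.03 to 0.85 and -1.34 to 0.56 on the log2 scale were wide.

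The lipid-anchored netrin ntng2.L, whose product binds the synaptic adhesion protein Lrrc4 in the mouse, was lower in the exposed library of all 6 pairs. It held 6.81, 6.48 and 5.005 CPM in NF 45 controls and 4.47, 6.47 and 3.37 CPM after thioridazine. At NF 47 it held 6.51, 5.35 and 5.91 CPM in controls and 4.42, 5.18 and 2.72 CPM after thioridazine, with no overlap between the groups at that stage alone. The log2 differences were -0.35 ± 0.287 and -0.53 ± 0.289, while the copy ntng2.S differed by -0.11 ± 0.189 and -0.12 ± 0.189.

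For the netrin ntn3.S the pairs changed side with stage: the exposed library was below its control in all 3 pairs at NF 45 and above it in all 3 at NF 47, as in 0.734% of all genes. Controls stood at 5.72, 14.1 and 9.16 CPM and exposed brains at 5.69, 10.0 and 6.09 CPM at NF 45. At NF 47 controls stood at 6.99, 6.53 and 5.42 CPM and exposed brains at 7.63, 8.75 and 6.05 CPM. The groups overlapped at both stages, and the difference between the stage contrasts, 0.65 ± 0.449 on the log2 scale, did not pass the test (edgeR adjusted p = 1.00). The NF 45 difference was -0.41 ± 0.316, and -0.04 ± 0.293 without replicate 2 of the controls.

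Slits were represented by slit1.S and slit2.S, which repel Robo-bearing axons. The level of slit2.S was 57.1, 60.6 and 37.6 CPM in NF 45 controls and 54.7, 58.7 and 61.6 CPM in exposed NF 45 brains. It was 57.3, 59.1 and 68.1 CPM in NF 47 controls and 76.5, 59.3 and 69.1 CPM in exposed NF 47 brains. Replicate 3 of the NF 45 controls was the lowest of the 12, and groups overlapped at both stages. The log2 differences were 0.17 ± 0.164 and 0.15 ± 0.164 for slit2.S, where the NF 45 value was -0.01 ± 0.127 without that library, and -0.10 ± 0.133 and -0.05 ± 0.133 for slit1.S.

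Among the 12 ephrins 7 were higher and 5 lower at NF 45, and 5 higher and 7 lower at NF 47. Their intervals stayed within 1 log2 unit in 12 of 12 at both stages. The A ephrin efna5.L, a repellent of retinal axons in the tectum of other vertebrates, had 72.8, 70.7 and 62.1 CPM in NF 45 controls and 75.0, 73.5 and 71.4 CPM in exposed brains. At NF 47 it had 74.4, 69.5 and 82.6 CPM and 83.6, 75.0 and 76.8 CPM, overlapping at both stages. The transmembrane ephrin efnb2.L differed by 0.02 ± 0.126 and 0.03 ± 0.126, and its copy efnb2.S by 0.07 ± 0.114 and 0.03 ± 0.114. The lowest values of the family belonged to efna2.S at NF 45 and to efnb1.L at NF 47, with -0.22 ± 0.133 and -0.27 ± 0.250.

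Of the receptors, the Eph family held the member with the largest difference at NF 47, epha8.L (gene number 378530), which binds A ephrins. It stood at 3.98, 6.73 and 3.23 CPM in NF 45 controls and 2.80, 5.69 and 2.54 CPM in exposed NF 45 brains. At NF 47 it was 6.09, 5.28 and 5.27 CPM in controls and 3.46, 2.70 and 2.72 CPM in exposed brains. The NF 47 groups did not overlap, whereas at NF 45 they did, and each exposed library lay below its numbered control in all 6 pairs. Group means at NF 47 were 5.55 ± 0.471 CPM and 2.96 ± 0.436 CPM.

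The log2 difference of epha8.L was -0.90 ± 0.347 at NF 47, with an interval of -1.66 to -0.15, and -0.34 ± 0.344 at NF 45, with an interval of -1.09 to 0.41. The adjusted p of edgeR's quasi-likelihood test at NF 47 was 1.00, and 0.746 with the replicate number as a block. The difference between the stages, -0.57 ± 0.488, did not pass either. Averaged over both stages epha8.L was at -0.62 ± 0.244, and at -0.63 ± 0.140 with the block, where its adjusted p of 0.182 was the lowest of any member for a thioridazine contrast in any setting run. Its averaged value stayed between -0.85 and -0.44 over the alternatives run. At NF 45 the difference was 0.01 without replicate 2 of the controls and -0.80 without replicate 2 of the exposed group.

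In the other Eph receptors the exposed brains were on either side. The widely studied epha4.L, which binds ephrins of both classes, had 94.7, 109.8 and 76.8 CPM in NF 45 controls and 86.3, 105 and 109 CPM in exposed brains, and 112, 87.8 and 109.8 CPM and 123.3, 100.4 and 125 CPM at NF 47. Its copy epha4.S had 30.7, 42.6 and 33.3 CPM and 33.4, 47.7 and 38.8 CPM at NF 45, and 40.1, 34.9 and 33.3 CPM and 40.9, 38.4 and 39.6 CPM at NF 47. Groups overlapped in both copies at both stages, although epha4.S was higher in the exposed library of all 6 pairs. The differences of epha4.S were 0.17 ± 0.152 and 0.14 ± 0.152, and those of epha10.L, lower in all 6 pairs, were -0.33 ± 0.290 and -0.35 ± 0.290. The B receptor ephb2.S differed by -0.02 ± 0.172 and 0.07 ± 0.172.

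All 8 rows of dcc and unc5 had a lower mean in exposed brains at NF 45, by a median of -0.20 on the log2 scale, and 7 of 8 were lower at NF 47, by a median of -0.16. None of the 8 passed the test at either stage, and the median SE was 0.302 at NF 45. Over the alternatives run, 5 to 8 of them were lower at NF 45, with medians from -0.43 to 0.00, and 5 to 8 at NF 47, with medians from -0.31 to -0.03. Summed over the 8 rows, the level was 74.4, 103 and 65.1 CPM in NF 45 controls and 67.4, 93.6 and 51.0 CPM in exposed NF 45 brains. At NF 47 the sums were 83.5, 75.5 and 63.1 CPM and 66.3, 75.5 and 55.3 CPM, and the groups overlapped at both stages. At NF 45 the lowest sum was that of exposed replicate 3. In the NF 45 pair numbered 1, dcc.L, dcc.S, unc5b.L, unc5b.S and unc5c.S differed by 0.00, 0.03, 0.00, 0.07 and 0.14 on the log2 scale. There unc5a.S, unc5c.L and unc5d.S differed by -0.40, -0.20 and -0.20. In the pair numbered 3, unc5a.S was at 0.09 and the other rows between -1.01 and -0.12. In the NF 47 pair numbered 2, dcc.S and unc5a.S were at -0.05 and -0.26 and the other rows between 0.01 and 0.50. The 8 rows share libraries, so a shared direction is not independent evidence. The repulsive netrin receptor unc5c.L had the largest difference at NF 45, from 6.37, 8.91 and 6.01 CPM in controls to 5.53, 6.25 and 3.31 CPM after thioridazine, or -0.50 ± 0.262 on the log2 scale, and -0.27 ± 0.239 without replicate 3 of the exposed group. At NF 47 unc5d.S was furthest from 0, at -0.40 ± 0.250. The row with the most reads of the family, unc5a.S, which encodes another repulsive netrin receptor, differed by -0.15 ± 0.212 and -0.17 ± 0.211. The attractive receptor dcc.L differed by -0.41 ± 0.404 and -0.19 ± 0.410, and dcc.S by -0.07 ± 0.350 and -0.32 ± 0.355.

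Robo receptors, which bind Slits, were on either side of 0. The copies of robo1, the main Slit receptor of commissural axons, differed by -0.27 ± 0.164 for .L and -0.25 ± 0.272 for .S at NF 45, and by 0.00 ± 0.163 and -0.11 ± 0.274 at NF 47. For robo2.S the values were -0.09 ± 0.162 and 0.05 ± 0.161, and for robo3.S, which lets mouse axons cross the midline, 0.02 ± 0.156 and 0.08 ± 0.156. The narrowest interval in the family at NF 45 was that of robo4.L, a receptor of blood vessels in the mouse, at -0.25 to 0.21.

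Of the plexins, which carry the semaphorin signal into the cell, 9 of 13 had a higher mean in exposed brains at NF 45 and 11 of 13 at NF 47, and none passed the test. Their medians were 0.04 and 0.07 on the log2 scale. Over the alternatives run, 5 to 11 were higher at NF 45, with medians from -0.06 to 0.12, and 8 to 11 at NF 47, with medians from 0.05 to 0.15. Without replicate 3 of the NF 45 controls 6 of 13 were higher at NF 45. The semaphorin receptor plxna1.L (gene number 397805) was at 119, 114 and 82.3 CPM in NF 45 controls and 102, 111 and 122 CPM in exposed brains, and at 122, 114 and 129.97 CPM and 137, 104 and 133 CPM at NF 47. Its copy plxna1.S went the other way, with the exposed library below its control in all 6 pairs, at 42.2, 51.1 and 34.5 CPM and 34.0, 46.7 and 28.1 CPM for NF 45, then 40.0, 38.1 and 29.3 CPM and 36.3, 36.3 and 25.7 CPM for NF 47. Groups overlapped in both copies. The copies differed by 0.09 ± 0.150 and -0.23 ± 0.214 at NF 45, where plxna1.L was at -0.06 ± 0.135 without replicate 3 of the controls, and by 0.03 ± 0.150 and -0.13 ± 0.215 at NF 47. The largest positive value of any member at NF 45 was that of plxnc1.L, at 0.54 ± 0.289, a gene at 1.43 to 2.90 CPM. At NF 47 plxnb1.S, a receptor of Sema4D, was furthest from 0 in the family, at 0.20 ± 0.166.

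Neuropilins, the partners of plexins for class 3 semaphorins, had intervals within 1 log2 unit in 3 of 3 rows at NF 45. At that stage nrp1.L differed by 0.08 ± 0.298, nrp2.L by 0.11 ± 0.152 and nrp2.S by 0.15 ± 0.194. At NF 47 the differences were -0.15 ± 0.300, 0.09 ± 0.152 and 0.14 ± 0.195 in the same order.

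Same-numbered libraries were correlated within a stage over all genes, which does not establish that they are pairs. Under the assumption that they are, the mean thioridazine difference was also fitted with the number as a block. Averaged over stages without the block, 46 members were higher and 54 lower, and the median was -0.02 on the log2 scale for members and 0.00 for all genes. Without replicate 3 of the NF 45 controls the counts were 39 and 61. Intervals stayed within 1 log2 unit in 96 members and within 0.5 in 69. The block called 6 genes at NF 45, 1 at NF 47 and 25 in the average, which is 0.0226%, 0.00376% and 0.0941% of all genes, and 0 members in each. Of the marker lists, 1 row of retina and pigment and 1 of cartilage and connective tissue were called in the blocked average. Both had an adjusted p of 0.0212 in edgeR's quasi-likelihood test. At an unadjusted p under 0.05 in the average there were 2 members without the block, beside 2.95% of all genes. With the block there were 12, beside 9.19%. At NF 45 the block gave 10 such members beside 5.72% of all genes, and at NF 47 it gave 4 beside 4.35%. DESeq2 called 0 members too, beside 0.0265% at NF 45 and 0.109% in the average of the genes it gave an adjusted p. With the block DESeq2 again called 0 members. The shares of genes with an adjusted p were then 0.186% at NF 45, 0.0234% at NF 47, 0.25% in the average and 0.0176% for the difference between stages. The edgeR fit with the block but without both NF 45 libraries numbered 2 called 0 members beside 0.0112% of all genes at NF 47 and 0.0559% in the average.

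The 12 members with an unadjusted p under 0.05 in the blocked average were epha10.L, epha4.S, epha7.L, epha8.L, ephb3.S, ntng2.L, plxna1.S, sema3b.S, sema3f.S, sema3fl.L, unc5c.L and unc5d.S. Of these, epha4.S and sema3b.S were on the higher side, at 0.15 ± 0.0649 and 0.24 ± 0.0729, and the other 10 on the lower side. The lower values ranged from -0.63 ± 0.140 for epha8.L to -0.15 ± 0.0671 for sema3fl.L. Across all 6 pairs, 3 members were always higher in the exposed library, namely epha4.S, sema3b.S and sema3d.S, beside 3.1% of all genes. Another 6 were always lower, namely epha10.L, epha8.L, ntng2.L, plxna1.S, sema3f.L and sema3fl.L, beside 3.19%. These 9 members were singled out after their values were seen, and of all rows they are 3 and 6 of 100.

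**Figure D4:**
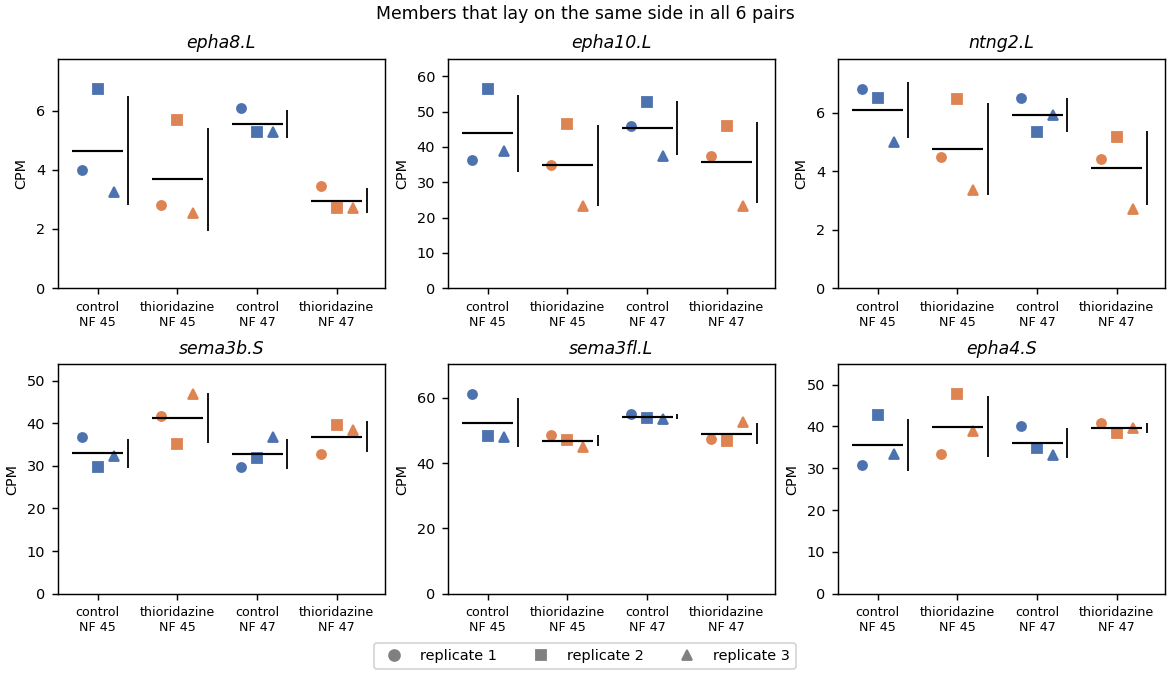
CPM of 6 of the 9 members that lay on the same side in all 6 pairs, by group, where circles, squares and triangles are replicates 1, 2 and 3, horizontal lines are group means and vertical lines span 1 SD on either side. The NF 47 groups of epha8.L, ntng2.L and sema3fl.L do not overlap, and all other pairs of groups shown within a stage do.

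The difference of the thioridazine contrast between NF 47 and NF 45 was on the higher side in 51 members and on the lower side in 49, with a median of 0.00. At an unadjusted p under 0.05 there were 0 members, beside 0.342% of all genes. The extremes were ntn3.S, described above, and plxnc1.L, at -0.63 ± 0.408. Intervals stayed within 1 log2 unit in 73 members.

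The remaining comparison was of stage, NF 47 against NF 45, within each arm. In controls 48 members were higher and 52 lower at NF 47, and 46.2% of all genes were higher. In exposed brains 49 were higher and 51 lower, and 45.6% of all genes were higher. In both arms the median log2 difference was -0.01 for members and -0.03 for all genes. Without both NF 45 libraries numbered 2 these counts were 65 higher and 35 lower in controls and 69 higher and 31 lower in exposed brains, with medians of 0.08 and 0.09 for members and 0.01 for all genes in both arms. At an unadjusted p under 0.05 there were 3 members in controls, beside 11.2% of all genes, and 2 in exposed brains, beside 9.63%. Without replicate 3 of the NF 45 controls, 39 were higher and 61 lower in controls. Marker lists differed with stage as well: oligodendrocyte rows were higher at NF 47 in 8 of 8 in both arms, neuron rows in 12 of 14 in both, and skin and epithelium rows were lower in 11 of 11 in both. Retina and pigment rows were lower in 10 of 11 in controls and 11 of 11 in exposed brains, and muscle rows in 9 of 11 in both. Cartilage and connective tissue rows were higher in 11 of 13 in both arms, and neural progenitor and radial glia rows in 6 of 12. In controls and exposed brains, red blood cell rows were higher in 6 and 2 of 6, and leukocyte and microglia rows in 6 and 2 of 9. Endothelium rows were lower in 11 and 7 of 12, and liver and gut rows in 6 and 3 of 7. The liver and gut sums of the NF 45 controls were 590, 582 and 1268 CPM, so replicate 3 was high. None of these rows passed the test, and their part in the stage differences was not tested. The stage groups did not overlap in 9 members in controls, beside 18.5% of all genes, and in 7 in exposed brains, beside 13.3%.

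A netrin receptor, the repulsive unc5c.L, had the largest stage difference of any member in controls. It was at 6.37, 8.91 and 6.01 CPM at NF 45 and 4.30, 4.62 and 4.36 CPM at NF 47, with all NF 47 controls below all NF 45 controls. Its log2 difference was -0.68 ± 0.263, with an interval of -1.26 to -0.11, and the adjusted p of edgeR's quasi-likelihood test was 0.372. In exposed brains it was at 5.53, 6.25 and 3.31 CPM and 4.10, 4.67 and 3.26 CPM, a difference of -0.33 ± 0.265 with overlapping groups.

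Both copies of unc5b, a relative that also acts in blood vessels of the mouse, had lower levels in NF 47 controls without overlap. The copy unc5b.L stood at 3.33, 3.74 and 3.46 CPM and 2.69, 2.11 and 2.11 CPM, and unc5b.S at 7.75, 11.2 and 7.93 CPM and 6.51, 6.27 and 4.92 CPM. In exposed brains unc5b.L had 3.34, 4.07 and 1.89 CPM at NF 45 and 1.86, 2.62 and 2.38 CPM at NF 47, and unc5b.S had 8.11, 12.3 and 5.85 CPM and 5.39, 8.90 and 4.35 CPM, with overlap in both. Control differences were -0.61 ± 0.296 and -0.60 ± 0.315 on the log2 scale. In the family as a whole 6 of 8 rows were lower at NF 47 in controls, with a median of -0.43, and 7 of 8 in exposed brains, with a median of -0.34. Only unc5a.S was higher at NF 47 in both arms, at 0.29 ± 0.211 and 0.27 ± 0.212. The libraries numbered 2 at NF 45 were high for 7 of these 8 rows. Without them 4 of 8 rows were lower in controls, with a median of -0.14, and 4 of 8 in exposed brains, with a median of -0.04.

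Among ligands, sema3a.L had 52.4, 57.8 and 56.1 CPM at NF 45 and 62.4, 62.2 and 75.3 CPM at NF 47 in controls. The exposed brains held 60.3, 53.1 and 61.1 CPM and 73.1, 62.7 and 66.7 CPM. The NF 47 libraries lay above the NF 45 libraries in both arms, by 0.27 ± 0.107 and 0.21 ± 0.107 on the log2 scale. Its copy sema3a.S overlapped between stages in both arms. From its mean of log2 CPM, sema3a.S lay at -0.03, 0.33 and -0.003 in NF 45 controls and 0.32, -0.13 and -0.08 in NF 47 controls. In exposed brains it lay at -0.07, 0.61 and -0.40, then -0.12, 0.01 and -0.44. The secreted semaphorin sema3b.L had lower estimates at NF 47 in both arms. In controls it went from 17.3, 14.0 and 20.2 CPM to 13.3, 13.5 and 11.3 CPM, or -0.43 ± 0.194. With DESeq2 it was at -0.43 ± 0.213 in controls and -0.35 ± 0.212 in exposed brains, where the groups overlapped. Its copy sema3b.S overlapped between stages in both arms. The netrin ntn3.S had the lowest value of its family in controls, at -0.61 ± 0.318, and at -0.22 ± 0.294 without control replicate 2 of NF 45. In exposed brains ntn1.L had the lowest, at -0.57 ± 0.425, and -0.02 ± 0.372 without exposed replicate 2 of NF 45. The transmembrane ephrin efnb1.L was the furthest from 0 of the ephrins in both arms, at -0.38 ± 0.249 and -0.50 ± 0.250, or -0.16 ± 0.240 without control replicate 3 of NF 47 and -0.30 ± 0.257 without exposed replicate 2 of NF 45. Among semaphorins with a mean of at least 1 CPM, sema3e.L was furthest from 0 in controls, at -0.51 ± 0.479, and -0.20 ± 0.525 without control replicate 3 of NF 45. In exposed brains it was sema3c.L, a class 3 member, at -0.46 ± 0.294, and -0.26 ± 0.313 without exposed replicate 2 of NF 45.

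Among other receptors epha7.S (gene number 108717965), which binds A ephrins, stood at 15.9, 21.3 and 11.8 CPM in NF 45 controls and 20.3, 20.5 and 22.6 CPM in NF 47 controls. In exposed brains it had 16.1, 18.1 and 17.3 CPM and 20.8, 21.3 and 21.5 CPM. Control groups overlapped through replicate 2 of NF 45, and the exposed groups did not overlap. The control difference was 0.37 ± 0.176, with an adjusted p of 0.466 in edgeR's quasi-likelihood test. Without both NF 45 libraries numbered 2 it was 0.64 ± 0.154, and epha7.S was then the 1 member called, with an adjusted p of 0.0450 in that edgeR test, beside 3.05% of all genes. With limma-voom its adjusted p was 0.0739 on all libraries and 0.0611 without those 2, and DESeq2 gave 0.399 on all libraries. The edgeR fit that called epha7.S kept replicates 1 and 3 of the NF 45 controls, at 15.9 and 11.8 CPM, and left out replicate 2, at 21.3 CPM. This fit was chosen with earlier results of these data known. In that fit the copy epha7.L differed by 0.17 ± 0.139, with an adjusted p of 0.557 in the edgeR test.

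The Slit receptor robo2.S had 38.2, 47.6 and 34.8 CPM in NF 45 controls and 46.5, 42.8 and 52.6 CPM in NF 47 controls, then 32.3, 38.1 and 42.6 CPM and 56.5, 39.9 and 50.2 CPM in exposed brains. Groups overlapped in both arms, and the differences were 0.23 ± 0.162 and 0.38 ± 0.162. The receptor ephb4.S, which binds ephrin B2, was at 30.9, 31.8 and 35.4 CPM in exposed NF 45 brains and 25.7, 26.9 and 27.6 CPM in exposed NF 47 brains, without overlap, a difference of -0.29 ± 0.111. In controls it differed by -0.04 ± 0.111. The largest stage differences of other receptor families were those of robo1.L in controls, -0.31 ± 0.164, of nrp2.L in controls, 0.16 ± 0.152, of nrp1.L in exposed brains, -0.31 ± 0.299, and of plxnc1.L in both, 0.29 ± 0.291 and -0.34 ± 0.286. In exposed brains dcc.S was furthest from 0 of its family, at -0.53 ± 0.354. Without exposed replicate 2 of NF 45 the values in exposed brains were 0.04 ± 0.275 for nrp1.L, -0.14 ± 0.342 for dcc.S and -0.19 ± 0.331 for plxnc1.L. Without control replicate 2 of NF 45 the values in controls were -0.18 ± 0.169 for robo1.L and 0.19 ± 0.332 for plxnc1.L. Other settings called 0 members for stage. A block across groups called 0.00753% of all genes in controls and 0.00376% in exposed brains, and limma-voom called 3.34% and 0.00376%. Without the NF 45 libraries numbered 2 limma-voom called 1.48% and 0.0224%, and edgeR called 0.0112% in exposed brains. DESeq2 called 421 of the 19533 genes with an adjusted p in controls (2.16%) and 278 of 13601 in exposed brains (2.04%). Members to which DESeq2 gave no adjusted p included unc5b.L in both arms and sema4b.S, unc5b.S and unc5c.L in exposed brains. Whether the stage differences of the arms differ is the same contrast as the difference between stages above, which called 0 members.

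**Figure D5:**
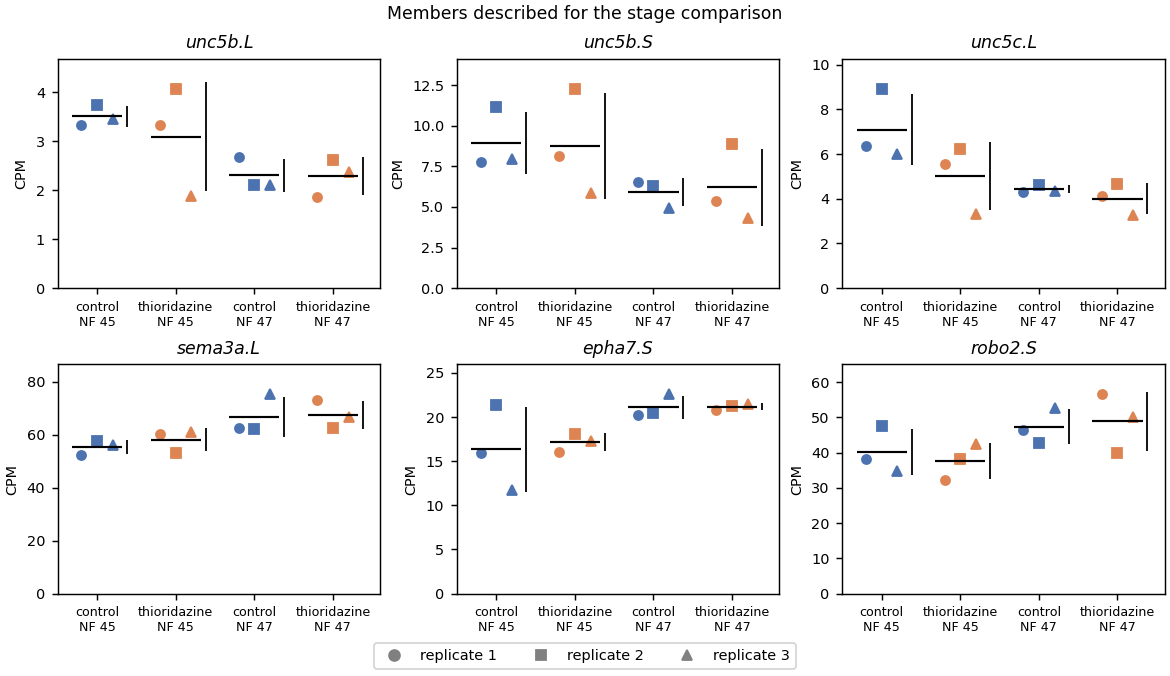
CPM of 6 members by group, where circles, squares and triangles are replicates 1, 2 and 3, horizontal lines are group means and vertical lines span 1 SD on either side. In unc5b.L, unc5b.S and unc5c.L the NF 47 controls lie below the NF 45 controls, and in sema3a.L the NF 47 libraries lie above the NF 45 libraries in both arms.

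Copies of a gene could be compared in 40 names. The .L and .S copies had the same sign in 29 of 40 for thioridazine at NF 45, in 28 at NF 47, in 28 for stage in controls and in 27 for stage in exposed brains. The copies share a library, and reads may be split between them during counting, so a shared sign is not independent evidence. With the reads of both copies summed, 0 names were called in any contrast. The .L share was steady in some genes, from 54.9% to 58.2% over the libraries for sema6a, and less so in others, from 32.5% to 53.8% for dcc.

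The wider pathway was covered by a list of 81 further symbols, such as co-receptors, other ligands and cytosolic effectors of guidance receptors, of which 10 were not found in the gene table. It gave 130 rows, and 128 were tested. None passed the test in any of the 6 contrasts. For thioridazine 57 were higher and 71 lower at NF 45, and 60 higher and 68 lower at NF 47, with log2 medians of -0.03 and -0.01. For stage in controls 61 were higher and 67 lower, with a median of -0.01 against -0.03 over all genes.

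Stage calls in this list appeared with other tools. With limma-voom, 6 effector rows rose in controls from NF 45 to NF 47 and 1 fell, beside 3.34% of all genes called, and 0 of the 100 members were called. The rows that rose were both copies of chn1, a Rac-inactivating protein downstream of Eph receptors, both copies of rnd1, whose product binds plexins, flrt1.L, and flrt3.L, a membrane partner of Robo and Unc5. The row that fell was enah.L, an actin regulator in growth cones. Among these DESeq2 called chn1.S and rnd1.L in controls, beside 2.16% of the genes it gave an adjusted p. In exposed brains it called enah.L, beside 2.04%. Without both NF 45 libraries numbered 2, edgeR called chn1.L and flrt3.L in controls, 2 of 128 rows beside 3.05% of all genes. These rows are named after their values were seen.

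The gene rnd1.L stood at 45.9, 46.3 and 45.4 CPM in NF 45 controls and 61.8, 63.0 and 62.0 CPM in NF 47 controls, a log2 difference of 0.44 ± 0.102 with no overlap. The gene enah.L had 21.3, 23.5 and 18.9 CPM and 13.0, 15.2 and 10.5 CPM in controls and 18.2, 25.4 and 16.1 CPM and 10.1, 13.7 and 9.31 CPM in exposed brains. Its NF 47 libraries were all below its NF 45 libraries in both arms, by -0.72 ± 0.209 and -0.85 ± 0.211.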

How the data were processed

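The authors deposited raw read counts, with 1 whole number per gene and library and 37018 numbered genes. Trimmomatic, HISAT2, HTSeq and DESeq2 are listed in the submitters' processing notes, without a role, while their versions, the build and the strand setting are not given in the sources used here. Symbols came from an NCBI RefSeq table of assembly Xenopus_laevis_v10.1, which named 33597 numbers. Reads from similar .L and .S copies or overlapping genes may be split or shared by an unknown amount.

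Counts were analysed with edgeR 4.0.16 in R 4.3.3: 26570 genes passed filterByExpr, TMM scaled the libraries, and 1 quasi-likelihood fit took in all 12 of them, with Benjamini-Hochberg adjustment over all genes. Fold changes are log2. For edgeR the SE was calculated back from the test, as the absolute log2 fold change divided by the square root of F. The intervals were built from this SE, so they are approximate. DESeq2 1.42.0 and limma 3.58.1 were alternatives. The code was tested on simulated data. Chi-square per gene between replicates was 6.91 to 52.8, far above the value of about 1 that repeat counts of 1 library would give. P-values weigh a difference between groups against the spread between these libraries, which may be technical.

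All groups share replicate numbers. Deviations of same-numbered control and exposed libraries from their group means correlated at 0.575, 0.845 and 0.449 at NF 45 and 0.291, 0.318 and 0.540 at NF 47. These, over all genes, are all above 0.1, so the number was taken to pair libraries within a stage. The 100 members alone gave 0.156, 0.812 and 0.127 for the NF 45 pairs, then -0.249, 0.338 and 0.265 for the NF 47 pairs. Members, lists and tests were chosen with earlier results of these data known. Genes named by rule were, per family, the row with the highest mean CPM and, among rows with a mean of at least 1 CPM, the row with the largest change in each contrast, plus the tested copies of 12 chosen names; others are named after their values were seen. Sequences, transcript lengths and genome positions were not used here.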

Additional observations from a re-analysis of the deposited data

How the results depend on the processing

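With 3 libraries per group and a median SE of 0.174 at NF 45, small differences of the members could not be detected. Larger ones could be missed too: epha8.L at NF 47, at -0.90 on the log2 scale and without overlap, was not called. No call on a member was made in the 6 main comparisons. Members called stayed at 0 in every alternative run, except that 1 was called for stage in controls without both NF 45 libraries numbered 2. Leaving out each library in turn gave 0 to 0 members called and 0 to 0 genes, except 0 to 1 genes for stage in exposed brains, where 1 gene was called without replicate 1 and without replicate 3 of the NF 45 controls. The lowest adjusted p of a member over all settings was 0.628 at NF 45, 0.715 at NF 47, 0.182 averaged, 0.0450 for stage in controls and 0.122 in exposed brains.

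Counts over all genes were 0 in the main comparisons and moved with the tool. DESeq2 called 9 genes at NF 45, 29 in the average, 421 for stage in controls and 278 in exposed brains. Limma-voom called 888 and 1 for stage. The replicate block within stage called 6, 1 and 25 at NF 45, at NF 47 and in the average. The replicate block across groups called 2 and 1 for stage. Across stages, same-numbered libraries correlated at -0.0556, -0.128 and 0.226 in controls and at 0.186, 0.236 and 0.429 in exposed brains. Only the exposed arm was above 0.1 for every number, and the numbers were not taken as pairs across stages. Without both NF 45 libraries numbered 2, stage called 817 and 3 genes. That fit, like the one without both numbered 3, was chosen with earlier results of these data known. Further alternatives were added after seeing the values. The block without both NF 45 libraries numbered 2 called 3 at NF 47 and 15 in the average. DESeq2 with the block called 50, 8, 77 and, for the difference between stages, 6. For stage, limma-voom without both NF 45 libraries numbered 2 called 398 and 6. Both blocks called 0 members and changed no call on one.

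Of the named values the sign was kept under all alternatives in 15 of 30 at NF 45, 15 of 29 at NF 47, 24 of 30 averaged, 6 of 29 for the difference, 20 of 29 for stage in controls and 16 of 27 in exposed brains. A change of sign in a value called in neither setting was not counted as a reversal. At NF 45 epha8.L was at 0.01 without replicate 2 of the controls and at -0.80 without replicate 2 of the exposed group. The median log2 fold change of the members stayed between -0.09 and 0.02 at NF 45 and between -0.03 and 0.00 at NF 47, and between -0.05 and 0.08 for stage in controls. The causes were not tested.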
